A study of Homo sapiens with 23 samples.

Results

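Telomerase is the enzyme that adds telomere repeats to chromosome ends. Its catalytic subunit is a reverse transcriptase encoded by TERT, its template is an RNA encoded by TERC, and dyskerin, encoded by DKC1, binds and stabilises that RNA. Shelterin is the protein complex that coats and protects telomeres: TERF1 and TERF2 encode its proteins that bind double-stranded repeats, POT1 its protein that binds the single strand, and TINF2 and ACD the proteins that bridge them. Human pluripotent stem cells hold telomerase activity and most differentiated cells, cardiomyocytes among them, hold little or none, with TERT as the subunit that usually limits it. The 8 genes (TERT, TERC, DKC1, TERF1, TERF2, TINF2, ACD and POT1) were chosen by name, from 57477 genes counted. All 8 were found, and 7 of them were among the 22245 genes with enough counts to be tested. TERC was not.

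Levels came from ribosomal RNA-depleted total RNA of H1-hESC, an established human embryonic stem cell line whose genotype the labels give as WT, taken through directed differentiation into cardiomyocytes. The groups are the days of that course, all from the same line and with no added gene, knockout or drug named in the labels: stem cells at day 0, mesendoderm at day 1, cardiac mesoderm at day 3, cardiac progenitors at days 5 and 7, and cardiomyocytes from day 10 through day 14 to day 28. Each day had 3 libraries, and day 10 had 2. The labels do not say whether libraries of a day came from separate cultures, so the tests see only the variation among the libraries at hand, and each later day has no undifferentiated control of its own. Between 4330334 (day 5 replicate 3) and 22089595 (day 0 replicate 2) reads per library were assigned to genes.

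Markers were checked against the labelled cell types. The 6 stem cell markers (among them POU5F1, NANOG and SOX2) summed to a mean of 6533 CPM (counts scaled to library size, with library sizes adjusted by TMM) at day 0 and to 2.25 CPM at day 28. The 4 mesendoderm markers peaked at day 1, at a sum of 3219 CPM. The 8 cardiomyocyte markers summed to 56.0 CPM at day 0 and to 40891 CPM at day 28. Lists for the types between were less sharp: the 4 cardiac mesoderm markers summed to 712 CPM at day 3, the day so labelled, and to 877 CPM at day 5, and the 4 cardiac progenitor markers to 536 and 603 CPM at days 5 and 7, 639 CPM at day 10 and 524 CPM at day 28. Markers of other types were also detected: fibroblast and stroma markers summed to 3010 CPM and smooth muscle markers to 2009 CPM at day 28. Endoderm and liver markers ranged from 463 to 2949 CPM among the day 14 libraries. Few genes carried these sums. Day 28 means were 2217 CPM for COL3A1, 411 for COL1A1, 262 for POSTN, 98.3 for LUM and 21.7 for DCN. They were 1022 CPM for CNN1, 918 for TAGLN and 68.9 for MYH11. All 5 fibroblast and stroma markers and all 3 smooth muscle markers were called higher at day 28 than at day 0. The same rule (edgeR adjusted p under 0.05) called 32.1% of all tested genes higher. Day 14 means were 1743 CPM for AFP, 112 for APOA1, 15.0 for TTR, 6.13 for FOXA2 and 1.97 for SOX17. The sums therefore do not by themselves show cells of those types. In bulk RNA, fewer cells of a type and less RNA per cell cannot be told apart.

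The template that telomerase copies lies near the 5′ end of the TERC RNA. TERC (ENSG00000270141) is a gene for a noncoding RNA of 541 bases at chr3:169764520-169765060 of GRCh38, on the minus strand. The stretch at chr3:169764981-169765040 is shown as DNA in the sense of the RNA, with the template in capitals, which are bases 46 to 56 of the annotated gene.
TERC: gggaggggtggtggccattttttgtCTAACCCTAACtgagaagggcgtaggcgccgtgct

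The promoters of the 3 falling members that have a window in the RefSeq table for GRCh38 are shown next, since these genes were lower at day 28 than at day 0. Each is a window of 300 bases across a RefSeq gene start, most of it upstream of that start, and is read on the strand of the gene. The gene positions given below are from GENCODE and have other starts for some genes. By them the ACD window lies wholly inside the gene, and more of the DKC1 window lies inside the gene than upstream. They lie at chr5:1295019-1295318 (TERT, minus strand), chrX:154762614-154762913 (DKC1, plus strand) and chr16:67660211-67660510 (ACD, minus strand). Capitals mark matches, on either strand, to the E-box CACGTG that MYC and related factors bind and to the GC box GGGCGG that SP1 and related factors bind. A GC box on the opposite strand appears here as its reverse complement.
TERT: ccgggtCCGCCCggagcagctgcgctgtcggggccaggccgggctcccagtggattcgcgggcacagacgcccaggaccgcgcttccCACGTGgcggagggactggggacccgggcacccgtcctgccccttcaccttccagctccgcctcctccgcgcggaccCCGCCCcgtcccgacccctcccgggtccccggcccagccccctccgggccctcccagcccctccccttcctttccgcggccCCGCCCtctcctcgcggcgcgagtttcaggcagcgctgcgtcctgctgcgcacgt
DKC1: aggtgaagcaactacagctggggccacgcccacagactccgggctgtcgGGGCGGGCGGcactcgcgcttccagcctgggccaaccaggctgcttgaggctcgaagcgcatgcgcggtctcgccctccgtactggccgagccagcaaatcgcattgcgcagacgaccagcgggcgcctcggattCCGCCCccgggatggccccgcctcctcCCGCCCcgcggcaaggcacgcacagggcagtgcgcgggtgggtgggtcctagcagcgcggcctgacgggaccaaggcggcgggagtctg
ACD: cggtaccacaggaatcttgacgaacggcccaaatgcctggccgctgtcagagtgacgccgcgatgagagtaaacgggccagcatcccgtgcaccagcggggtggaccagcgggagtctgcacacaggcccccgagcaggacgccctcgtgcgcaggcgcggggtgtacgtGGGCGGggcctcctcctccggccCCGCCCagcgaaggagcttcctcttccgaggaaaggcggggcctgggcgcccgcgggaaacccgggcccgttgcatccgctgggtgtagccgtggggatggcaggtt

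In all, 5 of the 8 members (TERT, POT1, TINF2, ACD and DKC1) had a window in that table. Among them the E-box letters occurred once, in TERT, and 7.26% of the 35116 windows of the table hold them. The GC box letters occurred 3 times in TERT, 4 times in DKC1 (a pair of these matches overlaps) and 2 times each in ACD, POT1 and TINF2, and 45% of all windows hold at least 1 match. The ETS motif letters CCGGAAG were found in TINF2 alone (10.3% of all windows), and the octamer ATGCAAAT in none of the 5 (1.77% of all windows). Shorter forms of the ETS motif, such as GGAA, were not searched, so ETS sites in the other windows are not excluded. These are matches of letters, with no measurement of binding.

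TERT, the catalytic subunit (ENSG00000164362, chr5:1253147-1295068, minus strand), was expressed in stem cells and mesendoderm and was nearly absent from the day 10, day 14 and day 28 libraries. At day 0 the 3 libraries held 20.1, 17.4 and 16.8 CPM, and at day 1 they held 22.3, 19.2 and 22.9 CPM. Day 3 libraries held 4.75, 9.57 and 10.5 CPM, day 5 libraries 4.57, 1.88 and 7.95 CPM, and day 7 libraries 3.53, 3.98 and 4.88 CPM. Day 10 libraries held 0 and 0.945 CPM, day 14 libraries 0.451, 0.358 and 0.126 CPM, and day 28 libraries 0.148, 0 and 0.216 CPM. The libraries of days 0 and 1 overlapped, lay above every library of day 3 and later, and none of days 3 to 7 was as low as any of the last 3 sampled days. Days 3 and 5, days 5 and 7, days 10 and 14, and days 14 and 28 overlapped as neighbours, so that TERT split into 3 levels: days 0 and 1, days 3 to 7, and day 10 onward.

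TERT fell from 21.5 ± 2.00 CPM at day 1 to 8.29 ± 3.10 CPM at day 3 (SD, n = 3 each; log2 change -1.39, SE 0.39, edgeR quasi-likelihood adjusted p = 0.00711). That call rested on the low library, day 3 replicate 1: without it the log2 change was -1.03 and the adjusted p was 0.0623. A further drop followed between day 7, at 4.13 ± 0.686 CPM, and day 10, at 0.472 ± 0.668 CPM (SD, n = 3 and 2; log2 change -3.07, SE 0.70, adjusted p = 0.00738 by edgeR). Day 10 replicate 1 had 0 TERT counts, which allows a level of up to 0.362 CPM by 3 counts, here on the library total without TMM. Without that library the log2 change was smaller, at -2.15, with 1 library left at day 10, so the call rests on few libraries. The step from day 3 to day 5 was not called (log2 change -0.90, adjusted p = 0.169), but it was without day 5 replicate 3 (log2 change -1.40, adjusted p = 0.0283).

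Over the whole course TERT had the largest change of the 7 tested members. All 3 day 28 libraries together held 5 TERT counts, against 1028 at day 0, and the mean level was 0.671% of that at day 0 (log2 change -7.08, SE 0.62, adjusted p = 4.02e-10 by edgeR). The fall by day 7 alone was to 22.8% of the day 0 level (log2 change -2.11, SE 0.42, adjusted p = 0.000167), and the fall from day 7 to day 28 had a log2 change of -4.96 (SE 0.68, adjusted p = 1.8e-06). These long comparisons share libraries with the steps. At 0 to 8 counts per library from day 10 onward, differences among day 10, day 14 and day 28 were not detectable at this depth, and intervals from counts cover counting error only.

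**Figure D1:**
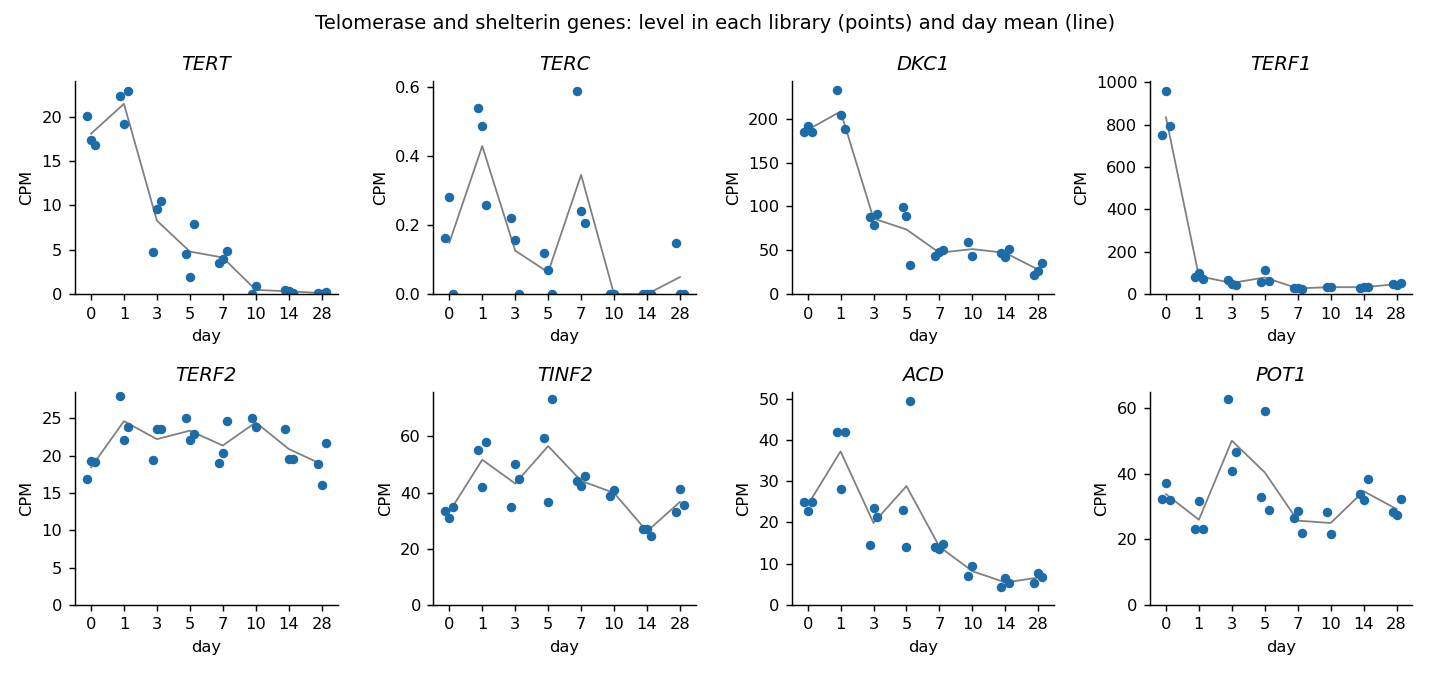
Level of each of the 8 genes in every library, in CPM on TMM-scaled library sizes (each panel has its own y axis from 0), against day of differentiation (days drawn at equal spacing). Points are libraries and lines join day means; TERF1 falls from 835 to 84.6 CPM between day 0 and day 1, TERT is below 1 CPM from day 10, and TERF2 stays between 16.1 and 28.0 CPM.

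TERC could not be followed. Its libraries held 0 to 10 counts each, 47 in all, with 20 at day 1 as the highest day and 0 in all 5 libraries of days 10 and 14. A second annotated gene on the same strand, ENSG00000277925, which carries the name of the vertebrate telomerase RNA family, spans chr3:169764610-169765047 and covers 438 of the 541 bases of TERC (81%). That gene had 0 counts in every library. HTSeq-count in its default mode assigns a read that lies in both genes to neither, and the mode used is not given in the sources used here. Only 103 bases of TERC lie outside the second gene, 13 at the 5′ end and 90 at the 3′ end, so the level of TERC RNA cannot be read from these counts.

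DKC1 (ENSG00000130826, chrX:154762742-154777689, plus strand) encodes dyskerin, the pseudouridine synthase of H/ACA small nucleolar ribonucleoproteins, which also holds the telomerase RNA. Its libraries held 185, 192 and 184 CPM at day 0 and 233, 204 and 188 CPM at day 1. They held 88.0, 79.1 and 91.6 CPM at day 3, 99.6, 88.6 and 33.0 CPM at day 5, and 43.0, 47.8 and 50.7 CPM at day 7. Levels were 59.0 and 43.6 CPM at day 10, 46.4, 42.8 and 52.0 CPM at day 14, and 21.95, 26.3 and 35.3 CPM at day 28. Every library of days 0 and 1 lay above every later library, and every day 28 library lay below all others except the 33.0 CPM of day 5 replicate 3.

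The first fall of DKC1 came at the same step as that of TERT, from 208 ± 22.6 CPM at day 1 to 86.2 ± 6.46 CPM at day 3 (SD, n = 3 each; log2 change -1.27, SE 0.28, adjusted p = 0.000871 by edgeR). Unlike that of TERT, this call held when any library of those days was left out. By day 28 DKC1 stood at 27.9 ± 6.78 CPM, 14.9% of the day 0 level (log2 change -2.75, SE 0.29, adjusted p = 1.27e-08). Between day 7 and day 28 it fell by 0.76 on the log2 scale (SE 0.28, adjusted p = 0.0278), a call lost without day 28 replicate 1 (adjusted p = 0.101), day 28 replicate 2 (0.0653) or day 7 replicate 3 (0.0562). DKC1 therefore remained between 21.95 and 59.0 CPM on the days when TERT was below 1 CPM. Per kilobase of the canonical transcript, the DKC1 level was 17.0 ± 1.71 times the TERT level at day 0 and 18.9 ± 1.60 times at day 7. On day 5, between these, the ratio ranged from 6.80 to 77.0 among libraries. At day 14 it ranged from 168 to 674, on 1 to 4 TERT counts per library. At day 28 it was 243 and 267 in the libraries with 2 and 3 TERT counts, and the library with 0 has no ratio. On so few counts the late ratios are rough.

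TERF1 (ENSG00000147601, chr8:73008856-73048123, plus strand) encodes TRF1, which binds double-stranded telomere repeats and takes part in telomere length control and replication. It was the highest of the 8 genes in stem cells and lost most of its level within the first day. Day 0 libraries held 749.8, 959 and 795 CPM, and day 1 libraries 82.2, 98.2 and 73.5 CPM. Day 3 libraries held 67.9, 48.1 and 41.7 CPM, day 5 libraries 58.8, 116 and 60.8 CPM, and day 7 libraries 28.1, 27.3 and 25.5 CPM. The 2 day 10 libraries held 32.9 and 32.6 CPM, day 14 libraries 30.0, 32.3 and 34.4 CPM, and day 28 libraries 46.2, 44.04 and 51.1 CPM. Every later library lay far below the lowest day 0 library, the highest of them being the 116 CPM of day 5 replicate 2.

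From day 0 to day 1 the mean TERF1 level went from 835 ± 110 to 84.6 ± 12.5 CPM, 10.1% of the day 0 level (SD, n = 3 each; log2 change -3.30, SE 0.27, adjusted p = 9.85e-10 by edgeR). TERT and DKC1 were not called at that step (log2 changes 0.25 and 0.15, adjusted p 0.646 and 0.698). TERF1 also fell from day 5 to day 7, from 78.4 ± 32.2 to 27.0 ± 1.30 CPM (log2 change -1.54, SE 0.25, adjusted p = 0.000151). A smaller fall from day 1 to day 3 (log2 change -0.69, adjusted p = 0.0309) was lost without any of 5 libraries: day 1 replicates 1, 2 and 3 (adjusted p 0.1004, 0.154 and 0.0677) and day 3 replicates 2 and 3 (0.156 and 0.172). It was also lost with library totals as the only scaling (log2 change -0.46, adjusted p = 0.167).

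TERF1 was the 1 member with a called rise late in the course. It went from 27.0 ± 1.30 CPM at day 7 to 47.1 ± 3.63 CPM at day 28, with no overlap of libraries (SD, n = 3 each; log2 change 0.81, SE 0.25, adjusted p = 0.0103 by edgeR). The rise was lost without day 7 replicate 2 (adjusted p = 0.0514) or day 7 replicate 3 (0.0668). It was also lost with library totals as the only scaling (log2 change 0.48, adjusted p = 0.133) and after trends with GC content and transcript length were removed (log2 change 0.04, adjusted p = 0.821). At the same step 4 of 5 fibroblast and stroma markers and 3 of 3 smooth muscle markers rose, beside 25% of all tested genes called higher. Their sums were 788 to 1470 CPM (fibroblast) and 386 to 512 CPM (smooth muscle) at day 7. At day 28 they were 2763 to 3212 and 1875 to 2137 CPM. No marker of either list was at 0 in those libraries, and their part in the TERF1 rise was not tested. Even so, TERF1 at day 28 was 5.65% of its day 0 level (log2 change -4.15, SE 0.28, adjusted p = 2.66e-12). The annotation lists 7 processed pseudogenes of TERF1, which held 252 counts in all libraries together against 60584 for TERF1.

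TERF2 (ENSG00000132604, chr16:69355567-69408571, minus strand) encodes TRF2, the paralog of TRF1 that keeps chromosome ends from being joined. It was the 1 tested member with no difference among the 8 days by the F-test over all of them (edgeR adjusted p = 0.355), against 88.4% of all tested genes that passed. Its 23 libraries lay between 16.1 and 28.0 CPM, and its day means between 18.4 and 24.6 CPM. For day 28 against day 0 the log2 change was 0.03 (SE 0.20), which at this SE does not show that the levels were equal.

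TERF2IP, which encodes the TRF2 partner RAP1 and completes the shelterin genes, moved the other way from TERF1. It held 15.9, 18.8 and 16.2 CPM at day 0, 54.9, 48.2 and 56.0 CPM at day 7, and 69.0, 81.6 and 75.1 CPM at day 28, with no overlap between these days. The log2 change was 1.64 for day 7 against day 0 (SE 0.26, edgeR adjusted p = 7.78e-06) and 2.15 for day 28 against day 0 (SE 0.26, adjusted p = 9.41e-08). Among the consecutive steps only day 5 against day 3 was called (log2 change 0.80, SE 0.25, adjusted p = 0.0283). Day 3 libraries held 22.7, 22.3 and 26.2 CPM and day 5 libraries 49.7, 50.9 and 22.3 CPM. These days therefore overlapped, through day 5 replicate 3. The TERF2IP calls were not checked with libraries left out, with other scalings or with GC trends removed.

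TINF2 (ENSG00000092330, chr14:24238286-24242663, minus strand) encodes TIN2, the shelterin hub that ties TRF1 and TRF2 to TPP1. Its libraries held 33.5, 31.0 and 34.8 CPM at day 0 and 55.0, 42.0 and 58.1 CPM at day 1, with no overlap. It rose at that step (log2 change 0.64, SE 0.23, adjusted p = 0.0336 by edgeR), a call lost in several alternatives, among them leaving out day 0 replicate 1 or 2 (adjusted p 0.0780 and 0.0880), day 1 replicate 1 or 3 (0.0782 and 0.107), and removal of GC and length trends (log2 change 0.16, adjusted p = 0.255). Day means ranged from 26.2 ± 1.48 CPM at day 14 to 56.6 ± 18.6 CPM at day 5, and day 28, at 36.7 ± 4.20 CPM, was not called against day 0 (log2 change 0.15, SE 0.23, adjusted p = 0.591). Of its annotated exon bases, 21.9% overlap GMPR2 on the opposite strand, and the strand setting of the counting is not given in the sources used here.

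ACD (ENSG00000102977, chr16:67657512-67660810, minus strand) encodes TPP1, which binds POT1 and recruits telomerase to the telomere. Its libraries held 24.9, 22.7 and 24.9 CPM at day 0, 41.8, 28.0 and 41.8 CPM at day 1, and 14.6, 23.6 and 21.4 CPM at day 3. They held 22.9, 14.0 and 49.4 CPM at day 5, 14.1, 13.5 and 14.6 CPM at day 7, and 6.98 and 9.33 CPM at day 10. Day 14 libraries held 4.401, 6.56 and 5.30 CPM and day 28 libraries 5.32, 7.65 and 6.78 CPM. All libraries from day 10 on lay below all libraries of earlier days.

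ACD at day 28 was 6.58 ± 1.18 CPM against 24.2 ± 1.29 CPM at day 0 (SD, n = 3 each; log2 change -1.87, SE 0.32, adjusted p = 1.96e-05 by edgeR). From day 7 to day 28 it fell by 1.10 on the log2 scale (SE 0.33, adjusted p = 0.00772), although not after removal of GC and length trends (log2 change -0.25, adjusted p = 0.182). Its falls from day 1 to day 3 (log2 change -0.91, adjusted p = 0.0231), from day 5 to day 7 (log2 change -1.0, adjusted p = 0.0459) and from day 0 to day 7 (log2 change -0.78, adjusted p = 0.0398) were each lost in several alternatives. Without day 5 replicate 3, for example, the day 5 to day 7 step had a log2 change of -0.38 (adjusted p = 0.356). Without day 3 replicate 1, day 1 replicate 1 or day 1 replicate 3 the change from day 1 to day 3 had adjusted p-values of 0.145, 0.0997 and 0.105. The fall from day 0 to day 7 was lost when any 1 of the 6 libraries of those days was left out (adjusted p 0.0855 to 0.145).

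POT1 (ENSG00000128513, chr7:124822386-124929983, minus strand) encodes the shelterin subunit that binds single-stranded telomere DNA. It rose from 23.3, 31.6 and 22.99 CPM at day 1 to 62.9, 40.8 and 46.5 CPM at day 3, with no overlap (log2 change 0.95, SE 0.25, adjusted p = 0.00408 by edgeR). That call held without each library in turn. POT1 then lay at day means of 24.96 to 40.4 CPM from day 5 on, and day 28, at 29.2 ± 2.59 CPM, was not called against the 33.8 ± 2.98 CPM of day 0 (log2 change -0.21, SE 0.25, adjusted p = 0.477). ACD, the partner of POT1, moved in the opposite direction at the day 1 to day 3 step, as given above.

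**Figure D2:**
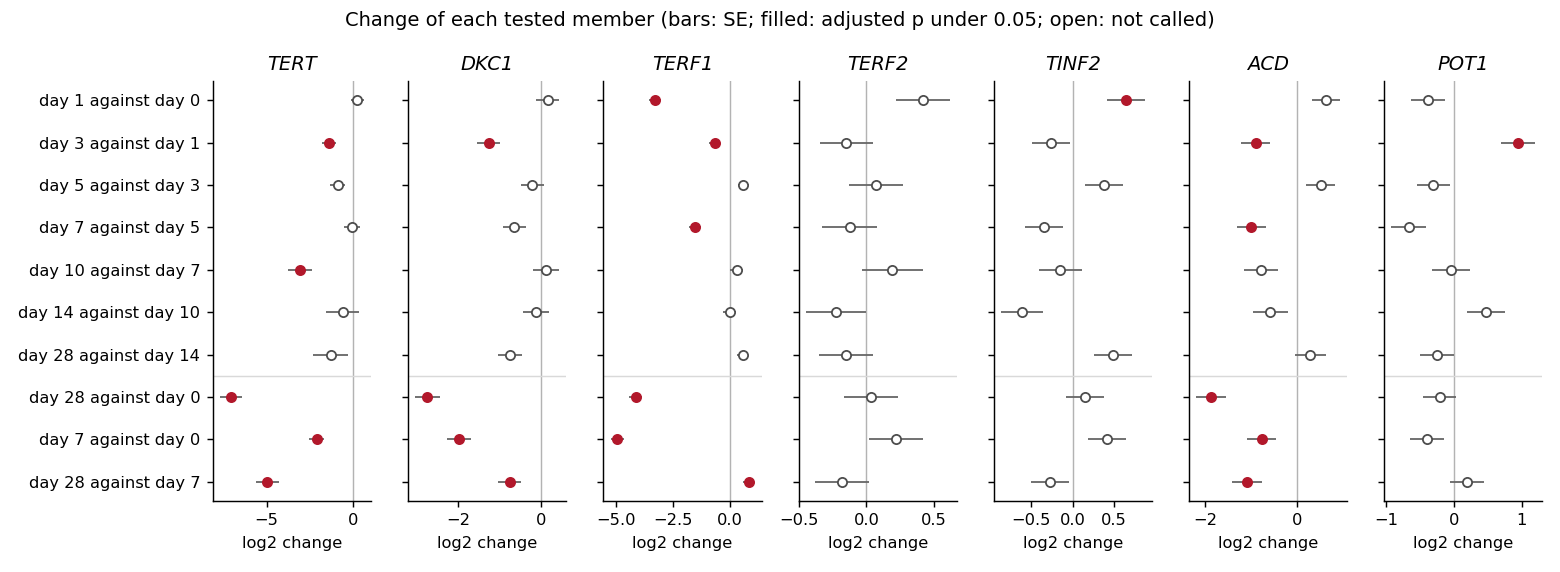
Log2 change with its SE (bars) for the 7 tested genes (panels, each with its own x axis) in the 10 comparisons between days. Filled points have an edgeR adjusted p under 0.05; TERT, DKC1, TERF1 and ACD are filled to the left of 0 for day 28 against day 0, and TERF2 has no filled point.

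Counted by comparison, 2 of 7 tested members were called for day 1 against day 0 (1 higher, 1 lower), where 31.8% of all tested genes were called, 15.3% higher and 16.5% lower. For day 3 against day 1, 5 of 7 were called (1 higher, 4 lower), beside 37.2% of all genes, 18.2% higher and 19% lower. For day 7 against day 5, 2 of 7 fell (10.3% of all genes called, 5.32% higher and 5.02% lower), and for day 10 against day 7, 1 of 7 fell (7.67% called, 4.17% higher and 3.5% lower). The day 1 to day 3 step, from mesendoderm to cardiac mesoderm, had both the most called members and the most called genes of all steps, and with 1 library left out 3 to 4 members were called there, against 1 to 4 for day 1 against day 0.

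No member was called at the other 3 steps. For day 5 against day 3 (16.6% of all genes called, 10.3% higher and 6.33% lower), 2 members, TERT and TERF1, had an unadjusted edgeR p under 0.05, and DESeq2 called 0. For day 14 against day 10 (3.74% of all genes, 1.64% higher and 2.11% lower), 1 member, TINF2, had such a p, and DESeq2 called 0. For day 28 against day 14 (15.7% of all genes, 7.96% higher and 7.78% lower), 3 members, DKC1, TERF1 and TINF2, had such a p, and DESeq2 called 1, DKC1 (log2 change -0.75, adjusted p = 0.0372).

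For day 28 against day 0, 4 of 7 fell and none rose, beside 60.5% of all genes called (32.1% higher and 28.4% lower), and the median log2 change of the 7 was -1.87 beside 0.09 for all tested genes. For day 7 against day 0, 4 of 7 fell, beside 54.1% of all genes, 28.3% higher and 25.8% lower. For day 28 against day 7, 3 fell and 1 rose, beside 48.6% of all genes, 25% higher and 23.6% lower. Over any of the 8 days, 6 of 7 differed, beside 88.4% of all tested genes. With 7 tested members, these counts are given beside the shares of all genes, and nothing particular to the members is drawn from them.

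Day 5 needs a separate word, since its 3 libraries differed more than those of other days and differed by GC content. Relative to the mean of its day, the log2 level of genes changed by -0.57 per 10 percentage points of GC content in day 5 replicate 2 and by 0.48 in day 5 replicate 3. Libraries of other days ranged less widely, from -0.34 to 0.18 at day 3, -0.26 to 0.17 at day 1 and -0.15 to 0.15 at day 10, down to -0.03 to 0.03 at day 7. The -0.34 belongs to day 3 replicate 1, the library on which the day 1 to day 3 call of TERT rested, and with GC and length trends removed that step of TERT had a log2 change of -1.31 (adjusted p = 5.35e-05). GC content of the transcripts was 65.7% for TERT and 62.1% for ACD, and 38.1% for TERF1 and 36.6% for POT1, with a median of 48.3% over tested genes. In day 5 replicate 2 the GC-rich TERT and ACD were the lowest of the day, at 1.88 and 14.0 CPM, and the GC-poor TERF1 and POT1 the highest, at 116 and 59.1 CPM. In day 5 replicate 3, TERT and ACD were the highest. After trends with GC content and length were removed, TERT fell from day 3 to day 5 (log2 change -1.25, adjusted p = 0.00104), and TERF1 rose (log2 change 0.75, adjusted p = 2.28e-05).

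The make-up of shelterin messenger RNA changed with the fall of TERF1 and the rise of TERF2IP. As CPM per kilobase of canonical transcript length, the 6 shelterin genes summed to 308 ± 33.2 at day 0 and to 87.9 ± 5.49 at day 28. Without TERF1 the sum was 57.1 ± 0.782 at day 0 and 73.8 ± 5.51 at day 28. Day 0 libraries had 81.3 ± 1.91% of the 6-gene sum in TERF1, day 1 libraries 25.2 ± 5.70%, day 7 libraries 10.1 ± 0.739% and day 28 libraries 16.1 ± 1.497% (SD, n = 3 each). TERF2IP made up 2.59 ± 0.0558% on day 0, rising over 30.9 ± 1.44% on day 7 to 40.1 ± 1.40% on day 28. With union exon length in place of the canonical transcript, the TERF1 share was 66.9% at day 0, 13.7% on day 1, 4.93% on day 7 and 8.10% on day 28. These shares sum to a whole, so that a lower share of TERF1 by itself raises the others.

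Ratios between partners moved as well. TERF1 stood at 40.7 ± 3.73 times TERF2 per kilobase at day 0, 3.14 ± 0.752 times at day 1, 1.16 ± 0.204 times at day 7 and 2.27 ± 0.178 times at day 28. By union exon length the TERF1 to TERF2 ratio was 16.2 ± 1.49 at day 0 and 0.903 ± 0.0708 at day 28, since another length scales the ratio by the same factor on every day. TINF2 stood at 1.15 ± 0.0216 times ACD at day 0 and at 4.72 ± 0.429 times at day 28, and ACD at 1.87 ± 0.252 times POT1 at day 0 and 0.588 ± 0.125 times at day 28. The libraries of day 0 and day 28 did not overlap in any of these 3 ratios. These ratios and the shares above come from CPM without removal of GC trends. GC content differs between partners, at 62.1% for ACD, 55.0% for TINF2 and 36.6% for POT1. With GC and length trends removed, the day 7 to day 28 changes of TERF1, TINF2, ACD and POT1 differed. The falls of TERF1 and ACD from day 0 to day 28 kept their call there. The ratios were not recomputed that way.

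**Figure D3:**
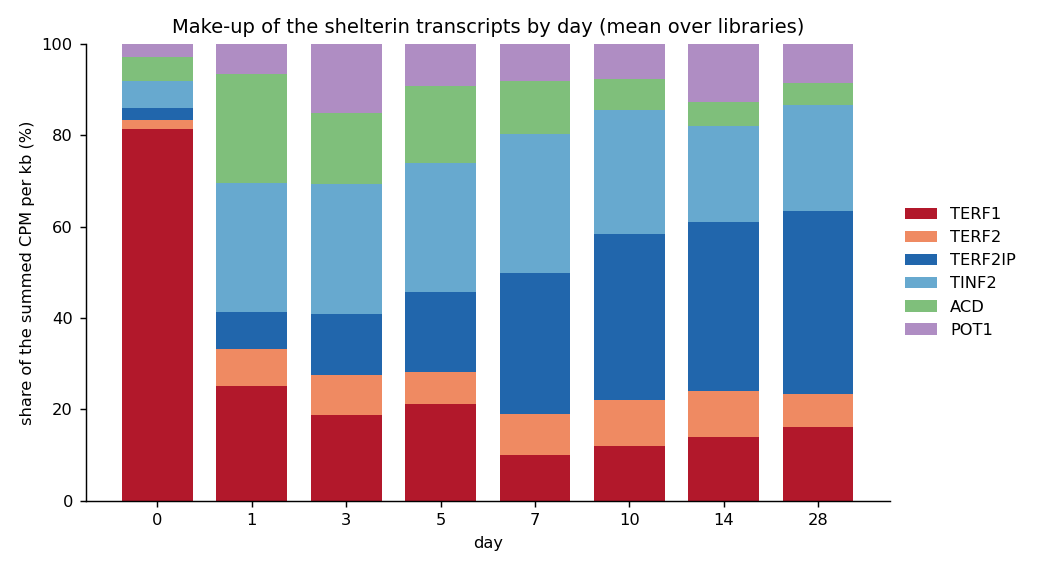
Share of each shelterin gene in the sum of the 6 (TERF1, TERF2, TERF2IP, TINF2, ACD, POT1), in percent of CPM per kilobase of canonical transcript, as day means. TERF1 holds 81.3% of the sum at day 0 and 25.2% at day 1, and TERF2IP reaches 40.1% at day 28.

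Ordered per kilobase of canonical transcript among TERF2IP and the tested members, day 0 ran TERF1 (251 ± 33.1 CPM per kilobase), DKC1 (75.9 ± 1.74), TINF2 (18.4 ± 1.10), ACD (15.99 ± 0.856), POT1 (8.61 ± 0.760), TERF2IP (7.96 ± 0.751), TERF2 (6.15 ± 0.440) and TERT (4.48 ± 0.441). POT1 and TERF2IP differed by less than their SDs. Day 28 ran TERF2IP (35.3 ± 2.95), TINF2 (20.4 ± 2.33), TERF1 (14.2 ± 1.09), DKC1 (11.3 ± 2.75), POT1 (7.45 ± 0.659), TERF2 (6.29 ± 0.928), ACD (4.36 ± 0.778) and TERT (0.0301 ± 0.0274). TERF1 and DKC1, and POT1 and TERF2, lay within the spread of each other on that day. On this scale TERT was the lowest of these 8 genes on every day. The order depends on the length used: by union exon length, TERF1 (3.00 ± 0.231) was sixth at day 28, after POT1 (3.35 ± 0.297), TERF2 (3.35 ± 0.493) and DKC1 (3.03 ± 0.737), which lay within the spread of each other, and at day 1 POT1 (2.98 ± 0.560) was below TERT (3.63 ± 0.339).

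Beside these falls, markers of dividing cells and of stem cells also fell, and their part in the members' changes was not tested. All 16 proliferation markers (MKI67, TOP2A, PCNA, MCM2 to MCM7 and others) were lower at day 28 than at day 0, beside 28.4% of all tested genes called lower. Their sum went from between 5646 and 5766 CPM at day 0 to between 684 and 1224 CPM at day 28, with none at 0 in any of these libraries. On days 1, 3, 7, 10 and 28 in that order, their sum stood at 93.1%, 55.1%, 26.1%, 15.4% and 15.2% of day 0. The stem cell marker sum stood at 92.7%, 46.7%, 18.9%, 4.96% and 0.0345% on the same days, with 1 of its 6 markers at 0 in each day 28 library. That sum was mostly LIN28A from day 3 to day 14 (90.0% of it at day 3 and 97.2% at day 7), and the sum of the other 5 markers stood at 84.7%, 10.03%, 1.13%, 0.361% and 0.0519% of day 0. On these days DKC1 was at 111%, 46.0%, 25.2%, 27.4% and 14.9%, TERT at 119%, 45.8%, 22.8%, 2.61% and 0.671%, and TERF1 at 10.1%, 6.30%, 3.23%, 3.93% and 5.65%. At day 1, when TERF1 had lost most of its level, 3 of the 6 stem cell markers had fallen (edgeR adjusted p under 0.05, the rule that called 16.5% of all genes as lower). These were SOX2 from 209 to 23.7 CPM, PRDM14 from 83.6 to 10.5 CPM and DPPA4 from 869 to 497 CPM. NANOG, at 251 and 162 CPM, LIN28A, at 3478 and 3470 CPM, and POU5F1, at 1642 and 1895 CPM, were not called.

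**Figure D4:**
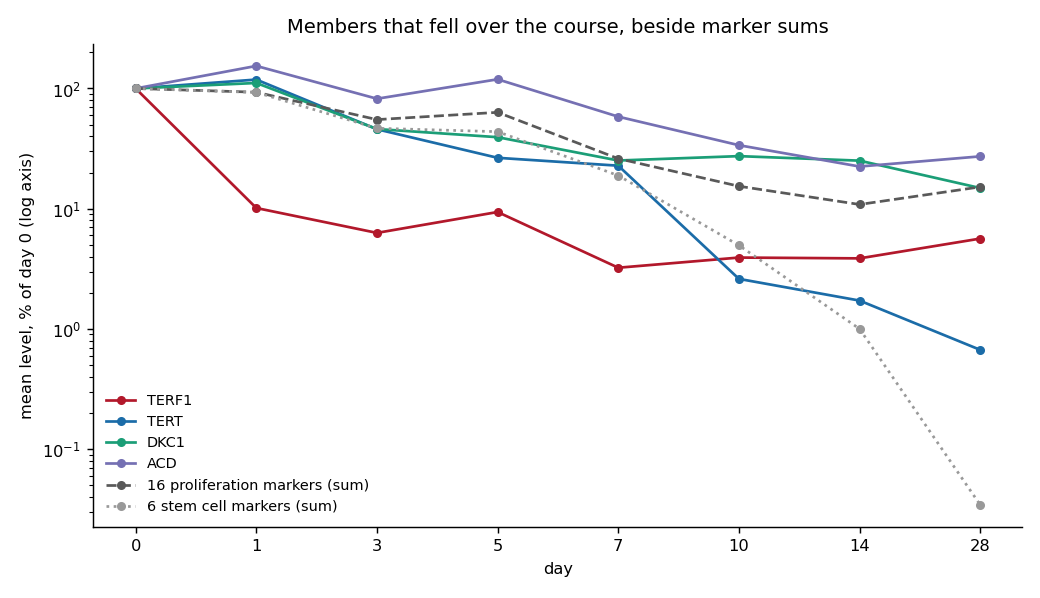
Mean level of TERF1, TERT, DKC1 and ACD, and the summed level of 16 proliferation markers and of 6 stem cell markers (mostly LIN28A from day 3 to day 14), as percent of the day 0 mean (log axis), by day (drawn at equal spacing). TERF1 is at 10.1% at day 1, when the marker sums are at 93.1% and 92.7%, and TERT falls from 22.8% at day 7 to 2.61% at day 10.

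RNA levels of genes for other proteins of the telomerase particle and its assembly fell with that of DKC1. Of 8 genes for H/ACA and telomerase assembly proteins, 8 were lower and 0 higher at day 28 than at day 0 (edgeR adjusted p under 0.05, the rule that called 28.4% of all genes as lower), with a median log2 change of -1.41. WRAP53, which encodes the protein that brings the telomerase RNA to Cajal bodies, went from 35.1 ± 2.44 to 8.40 ± 1.03 CPM (log2 change -2.06). RUVBL1, an ATPase of telomerase assembly, had a log2 change of -2.03, and NHP2 and GAR1, both core H/ACA proteins, had log2 changes of -1.89 and -1.58. At the day 1 to day 3 step, 6 of the 8 fell and 0 rose, beside 19% of all tested genes called lower and 18.2% higher. At day 1 against day 0 none was called, beside 31.8% of all tested genes.

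Of 10 genes that process or degrade the telomerase RNA, 1 rose and 3 fell from day 0 to day 28, beside 32.1% of all tested genes called higher and 28.4% called lower. XRN1, the cytoplasmic 5′ exonuclease, rose from 21.3 ± 3.26 to 143.5 ± 5.01 CPM (log2 change 2.75). TOE1 and EXOSC10, which trim RNA 3′ ends, and TGS1, which hypermethylates RNA caps, had log2 changes of -1.89, -0.71 and -1.25.

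The list for the CST complex, its DNA polymerase partner and telomere replication was nearly all lower. Of 12 tested genes of 13, 11 fell and 1 rose, beside the same shares of all genes, with a median log2 change of -2.04. BLM, a helicase, went from 137 ± 15.5 to 9.72 ± 7.07 CPM (log2 change -3.81), and PRIM1 and PRIM2, the primase subunits, and TIMELESS, a fork protection protein, had log2 changes of -3.47, -2.70 and -2.78. Several genes of this list act in general DNA replication, and the proliferation markers fell over the same days. The 1 that rose was STN1, a subunit of CST itself, from 12.2 ± 1.31 to 36.2 ± 4.91 CPM (log2 change 1.57, SE 0.25, adjusted p = 8.37e-06), named after its values were seen.

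Of 17 shelterin partners and regulators, 6 rose and 7 fell, beside 32.1% of all tested genes called higher and 28.4% lower, with a median log2 change of 0.23. NEK7, a kinase reported to act on TRF1, rose from 12.6 ± 1.47 to 454 ± 23.3 CPM (log2 change 5.17), and FBXO4, of a ubiquitin ligase for TRF1, from 0.785 ± 0.317 to 4.53 ± 0.611 CPM (log2 change 2.504). PINX1, a TRF1 partner and telomerase inhibitor, and GNL3, nucleostemin, fell, with log2 changes of -2.68 and -2.36. Among 9 genes for telomere chromatin and other telomere repeat binding proteins, 5 rose and 2 fell, beside the same shares. HMBOX1 and ZBTB10, which bind telomere repeats, had log2 changes of 2.60 and 2.25, NR2F2, an orphan nuclear receptor, had 3.62 (0.207 CPM at day 0 and 2.69 at day 28), and DAXX, a histone H3.3 chaperone, had -1.98.

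Of 18 transcription factors reported to act at the TERT promoter, 17 were tested, and 10 fell and 2 rose from day 0 to day 28, beside 28.4% of all tested genes called lower and 32.1% higher, with a median log2 change of -0.91. MYC, whose family binds the E-box marked above, fell from 95.6 ± 6.14 to 5.15 ± 1.57 CPM (log2 change -4.21), and MYCN from 102 ± 6.40 to 14.7 ± 2.85 CPM (log2 change -2.80). Neither fell steadily between these days. MYCN was at 14.3 CPM at day 1 and 155 CPM at day 5, when TERT was at 119% and 26.5% of its day 0 level. MYC was at 8.996 CPM at day 3 and at 26.4 CPM at day 7. Whether these levels bear on that of TERT was not tested. MXD1, which encodes an antagonist of MYC, rose from 2.56 ± 0.420 to 15.4 ± 1.61 CPM (log2 change 2.58). The other that rose was WT1, at 0 counts in each day 0 library and 3.13 ± 1.38 CPM at day 28, which is also a marker of the epicardium. Binding was not measured.

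Genes whose levels tracked a member most closely over the 23 libraries were found by Pearson's r of log2(CPM + 0.5), among 13009 protein-coding genes. For TERT these were TCN2 (r = 0.985), PLCB3 (0.976), THEMIS2 (0.975), RCC2 (0.973) and PFAS (0.970). For DKC1 they were RRP1B (0.988), HSP90AB1 (0.974), NIF3L1 (0.973), SEC23B (0.970) and YTHDF2 (0.969). For TERF1 they were TRIML2 (0.958), ZNF883 (0.949), BTBD17 (0.943), C6orf141 (0.942) and ZNF398 (0.942). No gene was on more than 1 of these 3 lists. The libraries share days and depth, so these values are descriptions of a shared course.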

How the data were processed

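The deposited table holds raw counts, whole numbers of reads per gene and library, in 23 libraries. Per the labels and the submitters' processing notes, the authors trimmed reads to 50 bases (Trim Galore 0.65), aligned them to GRCh38 (hg38) using STAR 2.7.0, and obtained counts per gene with HTSeq against GENCODE v38. The libraries were made with a stranded kit, and the strand setting and mode of counting are not given in the sources used here. Symbols, positions and lengths came from GENCODE v44. Of 57521 genes, 44 pseudoautosomal Y copies without counts were left out.

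A filter on low counts (filterByExpr, minimum 10) and TMM scaling came before the main model, edgeR's quasi-likelihood fit with robust moderation and the day as the only term, over all libraries (edgeR 4.0.16, limma 3.58.1, R 4.3.3). The same model was also run on counts simulated from that fit, for day 28 against day 14 only. Calls used a Benjamini-Hochberg adjusted p under 0.05 over all 22245 tested genes, in 10 comparisons and 1 F-test over days. CPM was computed here from the counts, and values are mean ± SD per day. All 8 members are named. From each pathway list, up to 4 called genes with the largest log2 change for day 28 against day 0 are named, and TERF2IP. The 5 genes most like a member needed at least 5 CPM on their highest day. The members, lists and tests were chosen with earlier results of these data known. Alternatives were other scalings (RLE, upper quartile, library totals), 2 other filters, DESeq2 1.42.0, a replicate block, fits of only the 2 days compared, each library left out, and, added after seeing the data, removal of GC content and transcript length trends (GC known for 98.8% of tested genes). The depth, 4330334 to 22089595 counts per library, is least at days 5 to 14.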

Additional observations from a re-analysis of the deposited data

How the results depend on the processing

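The falls of TERT, DKC1, TERF1 and ACD from day 0 to day 28 kept their direction and call under every alternative run. Among the 77 values (7 members in 11 tests), 75 kept their call and direction under RLE scaling, 67 under library totals alone, 74 under upper-quartile scaling, 72 with no filter, 76 with a mean of at least 1 CPM, 75 with DESeq2, and 61 with GC and length trends removed. Fits of only the 2 days kept 56 of 68, and leaving out 1 library kept 529 of 567, with 29 losing and 9 gaining a call.

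Counts of members called are given with the number of all genes called in the same fit, of 22245 tested unless stated. For day 7 against day 5 the count was 2 (2301 genes). It became 1 under RLE (2180 genes), library totals (2202), upper-quartile scaling (2185), no filter (2337 of 50827) and the 2-day fit (755 of 15989). With GC trends removed it was 4 (4834 genes). Library totals gave 1 for day 1 against day 0 (6699 genes), 3 for day 3 against day 1 (8194) and 1 for day 28 against day 14 (3910). Upper-quartile scaling and DESeq2 also gave 1 for day 28 against day 14 (3531 and 3763 genes). Without the filter the count was 1 for day 1 against day 0 (6581 of 50827 genes) and 1 for day 5 against day 3 (3602 of 50827). The 2-day fits gave 2 for day 10 against day 7 (4499 of 16813 genes) and 1 for day 14 against day 10 (1861 of 16817). They gave 3 for day 28 against day 14 (6274 of 17158) and 7 for day 7 against day 0 (14244 of 18140). With GC trends removed the count was 1 for day 1 against day 0 (7817 genes) and 2 for day 5 against day 3 (5676). In the same fit it was 2 for day 10 against day 7 (3766), 1 for day 14 against day 10 (2070) and 3 for day 28 against day 14 (6288). In that fit 2 uncalled values for day 28 against day 7 turned sign and were called: TINF2 at 0.33 (adjusted p = 0.0121, -0.27 in the main model) and POT1 at -0.72 (adjusted p = 1.93e-05, 0.19 in the main model). The cause of these differences was not tested.

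Leaving out 1 library gave 1 to 4 called members for day 1 against day 0, 3 to 4 for day 3 against day 1, 0 to 2 for day 5 against day 3, 1 to 3 for day 7 against day 5, 0 to 1 for day 10 against day 7, 3 for day 7 against day 0 and 2 to 4 for day 28 against day 7. Same-numbered libraries mostly did not deviate together (4 of 28 pairs had a correlation over 0.1), and the main model does not pair them. Since libraries also differed by GC content, this cannot show whether the numbers stand for matched cultures. With the replicate block, 76 of 77 values kept their call. The exception was ACD for day 7 against day 5 (log2 change -0.95, adjusted p = 0.0544), which makes 1 member called there in place of 2. Library totals moved the median log2 change of all genes to 0.27 for day 3 against day 1, -0.23 for day 28 against day 14 and -0.32 for day 28 against day 7, and the share of higher calls among all called genes from 48.9% to 64.0%, 50.6% to 32.0% and 51.4% to 34.2%. For day 7 against day 5 that share went from 51.5% to 67.9% and for day 10 against day 7 from 54.4% to 32.0%. Depth limits TERT from day 10 on, at 0 to 8 counts per library, and TERC on all days.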
